A study of Mus musculus with 24 samples.

Results

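The sphingosine-1-phosphate (S1P) pathway genes described here are 9 genes of the 53379 in the count table, picked by symbol for their roles: the kinases Sphk1 and Sphk2, the receptors S1pr1, S1pr2, S1pr3 and S1pr5, the lyase Sgpl1, the phosphatase Sgpp1 and the transporter Spns2. All 9 had enough counts to be tested, among 37598 genes tested. The mRNAseq data came from right hippocampi of adult male C57/BL6N mice, acquired at 8 weeks of age and acclimatised for 4 weeks, which received 70 nl of 20 mM kainic acid into the deep cortex next to the hippocampus (KA), eliciting status epilepticus, or saline (SH), and were examined 24 hours later. Tissue of the 8 mice per treatment was pooled as 4, 2 and 2 animals (replicates 1, 2 and 3), and sorting by the neuronal nuclear protein NeuN split each of the 3 pools into NeuN+ (neurons) and NeuN- nuclei (glia), giving 4 groups of 3 libraries. The pools, not the mice, are the replicates. The NeuN- fraction holds every nucleus without NeuN, including microglia, oligodendrocytes and vascular cells beside astrocytes. Only RNA in nuclei was measured.

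S1P is a lipid messenger made from sphingosine, a breakdown product of ceramide, by sphingosine kinases. It acts inside the cell and, once exported, on G protein-coupled receptors of neighbouring cells, and it is removed by dephosphorylation or irreversible cleavage. In the brain it is known for roles in astrocyte activation, oligodendrocyte survival, vascular barrier function and lymphocyte traffic, and the multiple sclerosis drug fingolimod acts on its receptors after phosphorylation by sphingosine kinase.

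At 24 hours, KA glia had more mRNA of Sphk1 and S1pr3 than SH glia, about 15.2 and 9.37 times as much by group means. Sphk1 was also upregulated in KA neurons, 6.32 times by group means. None of the other kinase, receptor, lyase, phosphatase or transporter genes passed the threshold in either cell type, nor did S1pr3 in neurons. With the replicate number as a block, S1pr3 also passed in neurons (higher), and S1pr1 and Spns2 in glia (both lower). In SH animals, S1pr1, S1pr2 and S1pr5 were higher in glia, with levels 13.7, 4.43 and 15.8 times those in SH neurons, whereas the ranges of both kinases overlapped between the fractions.

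Total counts ranged from 7769400 to 40364768 per library. The replicate 3 libraries detected 36165 to 42160 genes and the others 40660 to 47748, and SH glia replicate 1 and KA glia replicate 2 were amplified from about 0.05 ng RNA with 15 PCR cycles in place of 1 ng and 10 cycles. The fractions matched their labels: 15 neuronal marker genes summed to between 5949 and 9534 CPM (counts scaled by library size) in libraries of neurons and to between 672 and 2258 CPM in those of glia, and 8 oligodendrocyte markers to between 145 and 1279.6 CPM in neurons and between 7488 and 29772 CPM in glia. Expression is given as CPM after TMM normalisation (mean ± SD, n = 3 libraries), and changes as log2 fold change (logFC) with its standard error (SE) from the quasi-likelihood test of edgeR, called at a false discovery rate (FDR, Benjamini-Hochberg over all genes tested) below 0.25 for KA against SH and below 0.05 for glia against neurons. In bulk nuclei, fewer nuclei of a type and less RNA per nucleus cannot be told apart.

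**Figure D1:**
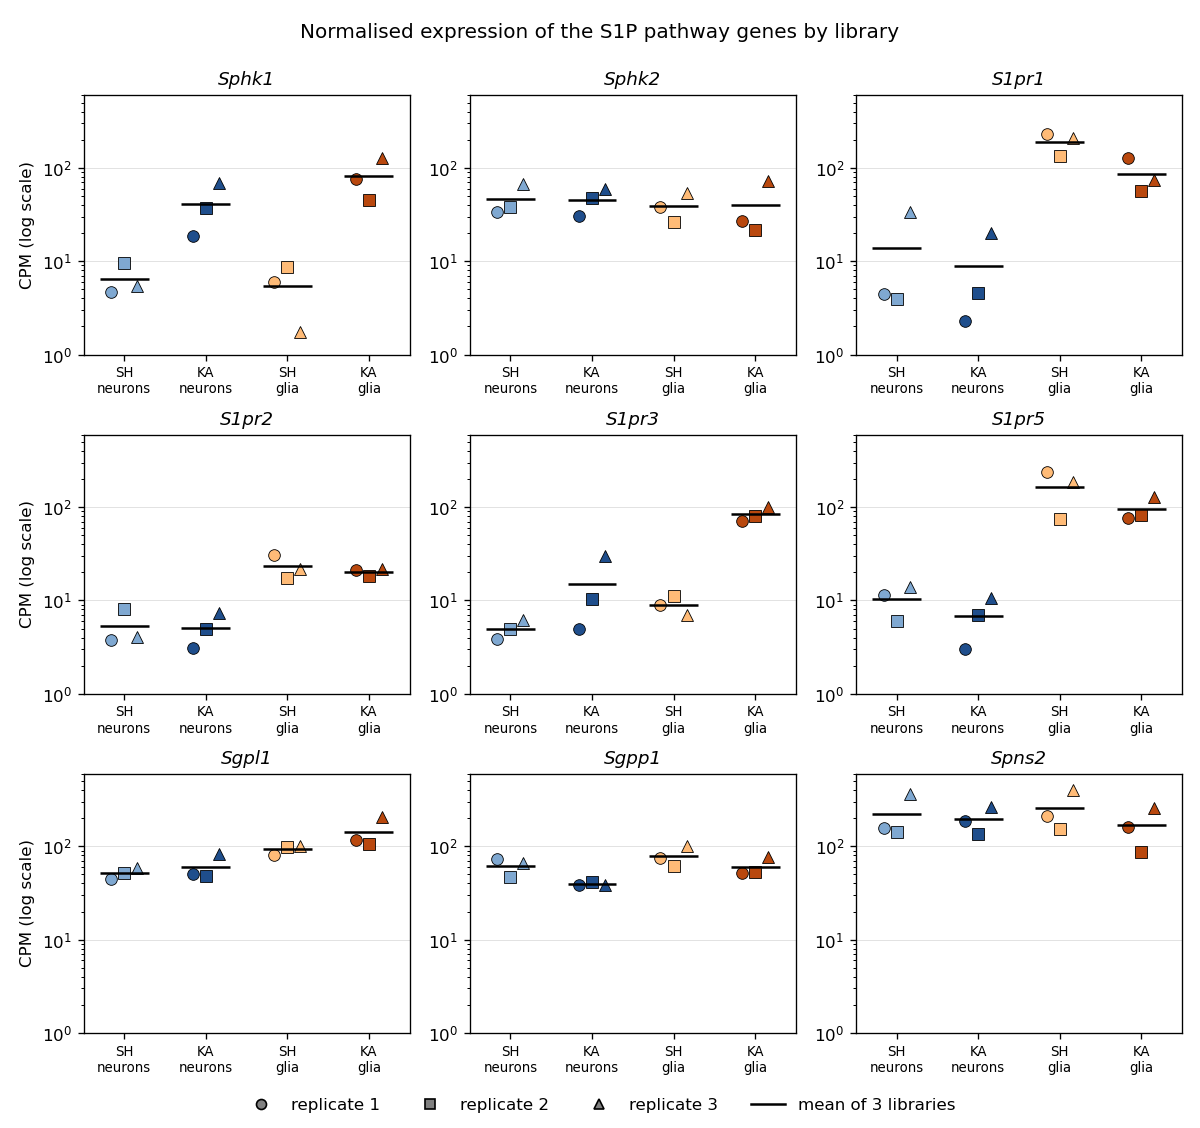
Normalised expression of the 9 genes, 1 panel a gene, in CPM on a log axis. Each point is 1 library, the marker gives the replicate number, and the line is the mean of the 3 libraries of a group. Sphk1 in both cell types and S1pr3 in glia stand higher in every KA than in every SH library, and S1pr1, S1pr2 and S1pr5 stand higher in every SH library of glia than in every SH library of neurons.

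Sphk1 (ENSMUSG00000061878, GRCm38 chromosome 11 from 116530925 to 116536674, plus strand) encodes the inducible cytosolic sphingosine kinase. In neurons it measured 4.66, 9.53 and 5.39 CPM in SH replicates 1 to 3 and 18.4, 37.0 and 68.2 CPM in the KA replicates. Its values in glia were 5.95, 8.71 and 1.73 CPM in SH and 76.7, 45.0 and 127 CPM in KA. In both cell types the lowest KA library lay above the highest SH library. The mean rose from 6.53 ± 2.62 to 41.2 ± 25.1 CPM in neurons (logFC 2.66, SE 0.59, FDR 0.152) and from 5.47 ± 3.52 to 82.9 ± 41.4 CPM in glia (logFC 3.93, SE 0.62, FDR 0.0257). These values rested on 58 to 226 reads in the SH libraries and 216 to 3087 reads in the KA libraries. The call in neurons was lost when any neuronal library other than KA replicate 1 was left out, with logFC between 2.09 and 3.04 over all libraries left out in turn, and it was lost without the 4 replicate 3 libraries (logFC 1.96, FDR 0.845). In glia it was kept without each single library, and without the 4 replicate 3 libraries the logFC was 3.04 and the FDR of 0.27 lost the call.

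Sphk1 is shown with a stretch of sequence because its upstream bases held letters that transcription factors of seizure and injury responses are known to bind. RefSeq start sites and GRCm38.p6 bases were searched on both strands, in the 250 bases before each start site, for the letters of 6 motifs. AP-1 was written as TGANTCA and the palindromic STAT site as TTCNNNGAA. The cAMP response element (CRE) was TGACGTCA, the GC box was GGGCGG, the TATA box was searched as TATAAA, and the CArG box by its usual consensus. The stretch lies on the plus strand at chr11:116531781-116531810, before the RefSeq starts at 116531837 and 116531911, within an exon of an annotated Sphk1 transcript, and capitals mark the AP-1 and the STAT letters, which are 2 bases apart:
Sphk1: tgtcgcTGAGTCAccTTCTCGGAAggcact
Of 32841 windows of the same length before all RefSeq starts, 6.75% held AP-1 letters, 7.02% held STAT letters and 0.451% held both. Among the 13 windows of 8 pathway genes (S1pr1 had none in the table), these were the AP-1 and STAT matches found; the windows of the 2 Sphk1 starts overlap and share them. The window of the first Sphk1 start, 116531100, held TATA letters instead, as 12.4% of all windows did. CRE letters (1.55% of all windows) were found before S1pr2, CArG letters (1.47%) before none of the 8 genes. A match is a description of the letters and was not tied to the measured change.

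Sphk2 (ENSMUSG00000057342, chromosome 7 from 45709467 to 45718002, minus strand), the mainly nuclear and mitochondrial kinase that also phosphorylates fingolimod, measured 33.7, 38.2 and 67.2 CPM in SH neurons and 30.4, 47.6 and 59.1 CPM in KA neurons. It was at 38.5, 26.4 and 53.8 CPM in SH glia and 26.9, 21.7 and 71.9 CPM in KA glia. The ranges of KA and SH overlapped in both cell types, with logFC -0.02 (SE 0.45) in neurons and 0.02 (SE 0.45) in glia. Replicate 3 was the highest library of each group, but without the TMM factors replicate 2 was the highest of KA neurons. Of the exonic bases of Sphk2, 21.9% are shared with exons of Dbp and Rpl18 on the opposite strand, where counting without strand drops reads that touch both genes. For the other members this share was 4.0% or less.

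Set side by side per length, as CPM per kilobase of exons (RPKM), Sphk1 made up 10.7, 17.9 and 6.53% of the 2 kinases in SH neurons and 34.6, 40.4 and 50.1% in KA neurons. In glia its share was 11.9, 22.3 and 2.73% in SH and 71.3, 64.4 and 60.6% in KA. Sphk2 therefore held the larger share in both SH groups, and Sphk1 held it in all 3 KA glia libraries. The mean share of Sphk1 went from 11.7 ± 5.72 to 41.7 ± 7.86% in neurons and from 12.3 ± 9.81 to 65.4 ± 5.42% in glia. Both kinases together summed to 10.7 ± 2.57 RPKM in SH glia and 27.0 ± 15.1 RPKM in KA glia, and to 12.5 ± 4.26 and 19.6 ± 8.66 RPKM in SH and KA neurons. The exact two-sided permutation test gave p = 0.1 for the share in either cell type and for the sum in glia, the smallest p that 3 against 3 libraries allow, and p = 0.3 for the sum in neurons. Over the 14 such comparisons of shares and sums the adjusted p was 0.28 at the lowest, so none passed.

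**Figure D2:**
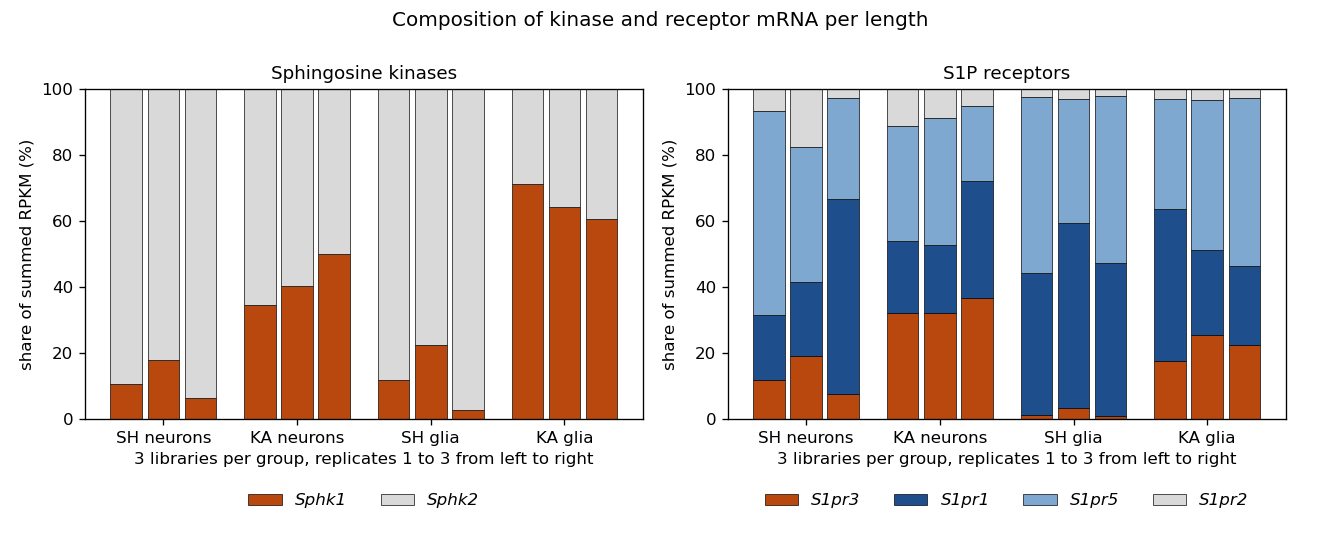
Share of each gene in the summed RPKM of the 2 kinases (left) and of the 4 receptors (right), in percent, with 1 stacked bar for each of the 12 libraries. Sphk1 takes 60.6 to 71.3% of the kinase bar in KA glia against 2.73 to 22.3% in SH glia, and S1pr3 17.5 to 25.4% of the receptor bar in KA glia against 1.06 to 3.19% in SH glia.

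Among the receptors, S1pr3 (ENSMUSG00000067586, chromosome 13 from 51408639 to 51422797, plus strand) couples to several G protein families and is known from reactive astrocytes and vascular cells. It measured 8.92, 11.1 and 6.96 CPM in SH glia and 70.8, 81.1 and 101 CPM in KA glia. In neurons the values were 3.81, 4.97 and 6.16 CPM in SH and 4.95, 10.3 and 30.2 CPM in KA. The groups were wide apart in glia, whereas in neurons KA replicate 1 lay within the SH range and KA replicate 3 well above the rest. In glia the mean rose from 9.01 ± 2.09 to 84.4 ± 15.5 CPM (logFC 3.23, SE 0.52, FDR 0.0257). It was 4.98 ± 1.18 CPM in SH neurons and 15.2 ± 13.3 CPM in KA neurons and did not pass the threshold there (logFC 1.61, SE 0.49, FDR 0.61), while each KA replicate was above the SH replicate of its number. The logFC in neurons ranged from 0.62, without KA neurons replicate 3, to 2.02, without KA neurons replicate 1, and was 0.81 without the 4 replicate 3 libraries. With the replicate number as a block, the logFC of S1pr3 in neurons was 1.28 with an FDR of 0.0838, past the threshold. The call in glia was kept without each single library, with logFC between 3.07 and 3.41.

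The 250 bases before the RefSeq start of S1pr3 at 51408618, chr13:51408368-51408617 on the plus strand of GRCm38.p6, are shown for comparison with Sphk1, since both genes rose in glia. Capitals mark the GC box, found in 32.7% of all windows, which was the match among the motifs searched:
S1pr3: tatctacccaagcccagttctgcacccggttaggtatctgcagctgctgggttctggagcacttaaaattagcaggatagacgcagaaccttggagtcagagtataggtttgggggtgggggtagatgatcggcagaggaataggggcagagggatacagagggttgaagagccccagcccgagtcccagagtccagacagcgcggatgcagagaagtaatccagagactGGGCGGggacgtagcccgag
The AP-1 and STAT letters of Sphk1 were not in this window, which says nothing of bases further away.

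S1pr1 (ENSMUSG00000045092, chromosome 3 from 115710433 to 115715072, minus strand), the receptor that couples to inhibitory G proteins and is known from astrocytes, endothelium and lymphocytes, measured 232, 134 and 207 CPM in SH glia and 127, 56.5 and 74.7 CPM in KA glia. In neurons it was at 4.42, 3.96 and 33.4 CPM in SH and 2.31, 4.55 and 20.1 CPM in KA. Every KA library of glia lay below every SH library of glia, while in neurons the replicate 3 libraries stood apart in both treatments. Its mean was 191 ± 51.2 CPM in SH and 86.2 ± 36.8 CPM in KA glia, and the difference did not pass the threshold (logFC -1.15, SE 0.76). With the replicate block the logFC was -1.20 (SE 0.25) with an FDR of 0.0116, past the threshold. Both fits used a spread shared by neurons and glia, and the block also took up the neuronal replicate 3 values. The part of pairing the glial pools in this call was not tested. The summed level of 10 astrocyte markers in neurons was likewise higher in replicate 3, 901 CPM in SH and 850 CPM in KA against 287 to 439 CPM in the other libraries. Its part in the neuronal S1pr1 values was not tested.

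S1pr5 (ENSMUSG00000045087, chromosome 9 from 21242912 to 21248443, minus strand), which in the brain is best known from oligodendrocytes, measured 236, 73.8 and 186 CPM in SH glia and 75.6, 81.6 and 129 CPM in KA glia. Its level in neurons was 11.3, 5.99 and 14.0 CPM in SH and 2.99, 6.94 and 10.5 CPM in KA. SH replicate 2 of glia lay below all 3 KA libraries, and the ranges overlapped in both cell types. The logFC was -0.79 (SE 0.48) in glia and -0.60 (SE 0.49) in neurons, neither past the threshold. The summed level of the 8 oligodendrocyte markers was 25905, 14283 and 29772 CPM in SH glia and 10776, 7488 and 14034 CPM in KA glia, lower in every KA library, although 0 of the 8 passed the threshold singly (median logFC -1.11). Their part in the S1pr5 values was not tested.

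S1pr2 (ENSMUSG00000043895, chromosome 9 from 20962361 to 20976781, minus strand), a receptor that is not a target of fingolimod, measured 30.9, 17.4 and 21.9 CPM in SH glia and 21.1, 18.2 and 21.6 CPM in KA glia. It was low in neurons, at 3.75, 8.05 and 4.04 CPM in SH and 3.07, 4.89 and 7.25 CPM in KA. KA and SH libraries overlapped in both cell types. The logFC was -0.20 (SE 0.40) in glia and -0.05 (SE 0.40) in neurons. The remaining S1P receptor, S1pr4, known from blood cells, did not exceed 2.43 CPM in any library.

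Per length, S1pr3 made up 1.13, 3.19 and 1.06% of the 4 receptors in SH glia and 17.5, 25.4 and 22.3% in KA glia. Its share in neurons was 11.7, 19.2 and 7.49% in SH and 32.2, 32.1 and 36.6% in KA, without overlap in either cell type. S1pr1 went from 48.6 ± 6.78% of the receptors in SH glia to 32.1 ± 12.2% in KA glia, with overlapping ranges, and S1pr5 held 47.3 ± 8.36 and 43.3 ± 8.97%. The summed receptor level was 134 ± 50.4 RPKM in SH glia and 88.0 ± 15.2 RPKM in KA glia. The exact two-sided permutation test gave p = 0.1 for the share of S1pr3 in each cell type (adjusted p = 0.28), p = 0.2 for that of S1pr1 in glia and p = 0.3 for the receptor sum in glia.

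Sgpl1 (ENSMUSG00000020097, chromosome 10 from 61098642 to 61147703, minus strand) encodes the lyase that cleaves S1P irreversibly. It measured 80.0, 97.7 and 102 CPM in SH glia and 117, 106 and 208 CPM in KA glia. In neurons the values were 44.5, 51.3 and 58.0 CPM in SH and 51.0, 47.6 and 82.7 CPM in KA. The KA libraries of glia all lay above those of SH, the closest pair being 106 and 102 CPM, but the logFC of 0.62 (SE 0.35) did not pass the threshold, nor did that of 0.24 (SE 0.35) in neurons.

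Sgpp1 (ENSMUSG00000021054, chromosome 12 from 75714249 to 75735729, minus strand) encodes the phosphatase of the endoplasmic reticulum that turns S1P back into sphingosine. It measured 73.1, 46.6 and 65.7 CPM in SH neurons and 38.3, 41.8 and 38.4 CPM in KA neurons. Its values in glia were 75.1, 60.9 and 101 CPM in SH and 52.1, 52.9 and 76.6 CPM in KA. Every KA library of neurons lay below every SH library, and in glia each KA replicate was below the SH replicate of its number while the ranges overlapped. The logFC was -0.65 (SE 0.32) in neurons and -0.39 (SE 0.32) in glia, neither past the threshold.

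Spns2 (ENSMUSG00000040447, chromosome 11 from 72451638 to 72489904, minus strand) encodes the transporter that exports S1P from the cell. It measured 156, 141 and 366 CPM in SH neurons and 185, 135 and 262 CPM in KA neurons. In glia it was at 212, 154 and 403 CPM in SH and 159, 86.3 and 256 CPM in KA. The ranges overlapped in both cell types, replicate 3 was the highest library of each group, and in glia each KA replicate was below the SH replicate of its number. Without the TMM factors, replicate 1 was the highest library of KA glia. The logFC was -0.19 (SE 0.50) in neurons and -0.61 (SE 0.51) in glia. With the replicate block the logFC in glia was -0.63 with an FDR of 0.196, past the threshold.

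Counted over the pathway, 1 of 9 genes in neurons and 2 of 9 in glia were upregulated and 0 were downregulated by edgeR's quasi-likelihood test. Of all genes tested, 0.279% rose and 0.0612% fell in neurons, while 0.442% rose and 0.306% fell in glia. An unadjusted p below 0.05 was found for 2 of the 9 genes in each cell type, Sphk1 and S1pr3, both higher in KA, beside 3.2% of all genes in neurons and 4.79% in glia. DESeq2 called both of them in neurons as well (FDR 0.00116 for Sphk1 and 0.143 for S1pr3). It called 432 of 37574 genes there, beside 128 of 37598 by edgeR's quasi-likelihood test. The replicate block called Sphk1 and S1pr3 higher in each cell type, 2 of 9 genes, beside 1.94% of all genes in neurons and 3.47% in glia. It called 0 of the 9 lower in neurons (1.11% of all genes) and 2, S1pr1 and Spns2, lower in glia (4.17%). KA and SH libraries did not overlap for 2 of 9 genes in neurons (9.72% of all genes) and for 4 of 9 in glia (6.61% of all genes). The median logFC of the 9 genes was -0.05 in neurons and -0.20 in glia, beside 0.000475 and 0.14 over all genes tested. Fitting protein-coding genes only gave a median over all genes of -0.0266 in neurons and -0.0062 in glia. Apart from Sphk1 and S1pr3, the logFC lay between -1.15 (S1pr1 in glia) and 0.62 (Sgpl1 in glia).

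**Figure D3:**
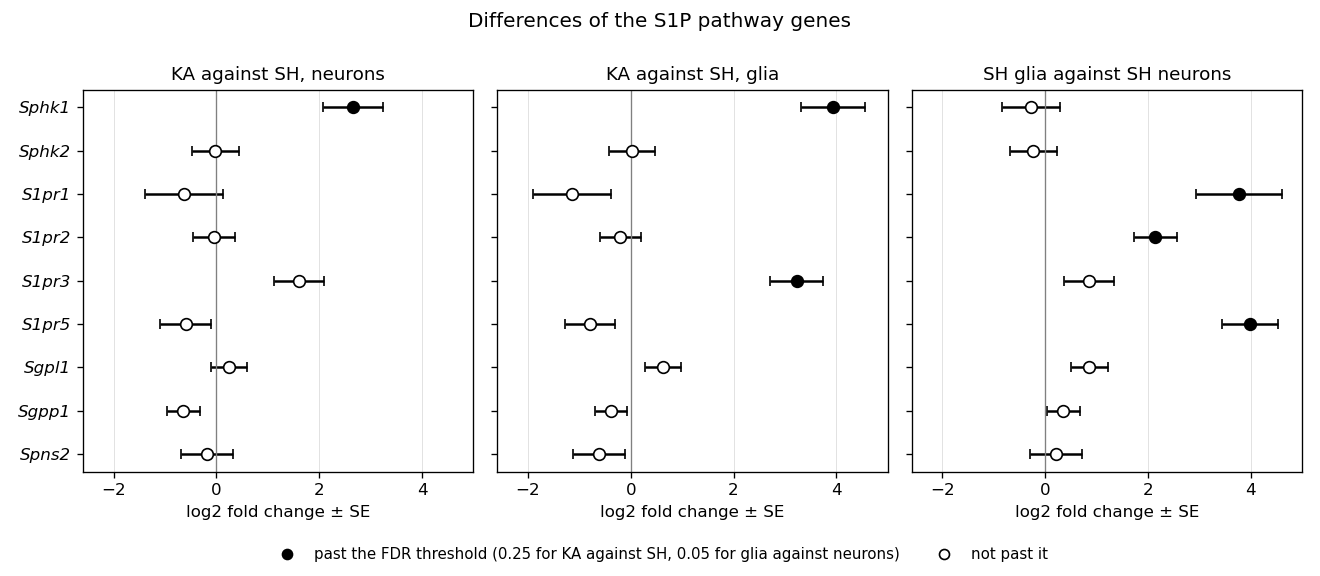
Log2 fold change with its SE of the 9 genes for KA against SH in neurons (left) and glia (middle) and for SH glia against SH neurons (right). Filled points pass the FDR threshold: Sphk1 in neurons, Sphk1 and S1pr3 in glia, and S1pr1, S1pr2 and S1pr5 between the fractions.

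**Figure D4:**
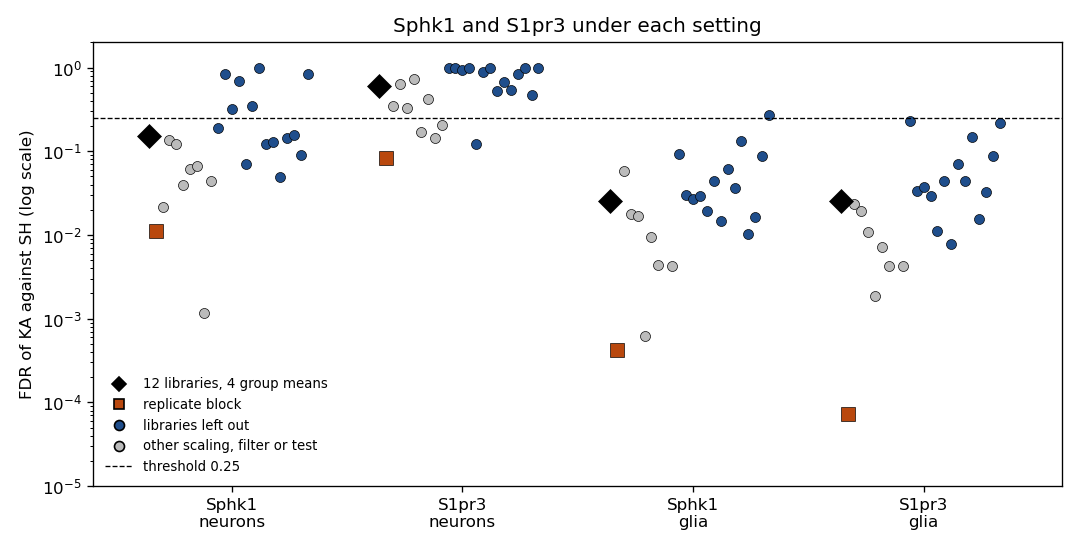
FDR of KA against SH for Sphk1 and S1pr3 in neurons and glia, on a log axis, with 12 libraries and 4 group means (diamond), the replicate block (square), libraries left out (blue) and other scalings, filters and tests (grey). Sphk1 in neurons lies on both sides of the threshold of 0.25, while in glia S1pr3 stays below it in each setting drawn and Sphk1 in each but that without the 4 replicate 3 libraries (FDR 0.27).

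The question whether the response differed between the cell types was addressed by the interaction, the KA effect in glia minus that in neurons. It was 1.62 (SE 0.68) for S1pr3 and 1.28 (SE 0.79) for Sphk1 on the log2 scale. None of the 9 genes passed the threshold in edgeR's quasi-likelihood test, nor did any gene of the whole table (0% called). This fit left the NeuN+ and NeuN- libraries of a pool unpaired. At an unadjusted p below 0.05 there were 502 genes, S1pr3 being the 1 among the 9. DESeq2 called 0 of the 9 as well, with 34 of 37574 genes called in all. With the pool as a block, S1pr3 had a difference of 1.97 (SE 0.48, FDR 0.219) and passed, among 0.471% of all genes, and Sphk1 did not (FDR 0.598). A call in glia and not in neurons is thus no shown difference for S1pr3 without the block.

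Levels in neurons were also read as a percentage of those in glia of the same pool. For S1pr3 this was 42.7, 44.6 and 88.5% in SH and 6.99, 12.7 and 29.8% in KA. For Sphk1 it was 78.3, 109 and 311% in SH and 24.1, 82.2 and 53.6% in KA. The summed astrocyte markers stood at 10.6, 20.2 and 29.7% in SH and 13.0, 33.9 and 45.9% in KA, and the summed microglia markers between 4.12 and 7.85% over the 6 pools. In KA, S1pr3 in neurons lay below the summed astrocyte percentage of its pool in all 3 pools and Sphk1 above it in all 3. The sum held Slc1a2 and Slc4a4, which in KA replicates 2 and 3 were higher in neurons than in glia. S1pr1 stood at 1.81, 8.04 and 26.8% in KA, below S1pr3 in all 3 pools. The order therefore depended on the genes compared. The part of glial RNA in the neuronal values was not tested.

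In SH animals the fractions differed for 3 of 9 genes, all higher in glia, where 4.67% of all genes tested were higher in glia and 6.05% in neurons. S1pr1 had a logFC of 3.78 (SE 0.84, FDR 0.0068), S1pr2 of 2.14 (SE 0.42, FDR 0.00279) and S1pr5 of 3.98 (SE 0.54, FDR 0.000219). This fit left the NeuN+ and NeuN- libraries of a pool unpaired. With the pool as a block S1pr1, S1pr2 and S1pr5 passed as well. The logFC of S1pr1 depended on SH neurons replicate 3, which was at 33.4 CPM: it was 5.51 without that library and 3.33 at the lowest over libraries left out, and passed the threshold in each case. Libraries did not overlap for 5 of the 9, beside 22.7% of all genes: these receptors, S1pr3 (logFC 0.85, FDR 0.397) and Sgpl1 (logFC 0.86, FDR 0.159). Sgpl1 passed the threshold with the pool as a block (FDR 0.00327), a fit that called 21.7% of all genes. Sphk1, Sphk2, Sgpp1 and Spns2 had logFC between -0.27 and 0.36, and their ranges in the fractions overlapped.

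Ordered by level per length in SH glia, S1pr5 (66.1 ± 33.1 RPKM), S1pr1 (62.8 ± 16.8) and Spns2 (62.8 ± 31.9) came first and did not differ beyond their spread. Sgpl1 (15.2 ± 1.90), Sgpp1 (14.0 ± 3.63) and Sphk2 (9.51 ± 3.30) followed, all below the range of Spns2, and S1pr2 (2.94 ± 0.86), S1pr3 (2.02 ± 0.47) and Sphk1 (1.14 ± 0.74) came last, with overlapping neighbours. In KA glia Spns2 (41.0 ± 20.9 RPKM) led, and S1pr3 (18.9 ± 3.47) and Sphk1 (17.4 ± 8.68) stood in the fifth and sixth place, above Sphk2 (9.65 ± 6.63), with each neighbour down to Sphk2 overlapping the next. In SH neurons Spns2 (54.1 ± 30.8 RPKM) lay above every other gene in all libraries, before Sphk2 (11.1 ± 4.37), Sgpp1 (10.9 ± 2.42) and Sgpl1 (8.35 ± 1.10), whose ranges overlapped. KA neurons kept Spns2 (47.6 ± 15.6 RPKM) in that place, with Sphk1 (8.63 ± 5.26) in the fourth and S1pr3 (3.40 ± 2.98) in the sixth place.

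Of 54 other genes of sphingolipid metabolism and S1P signalling, all tested, 0 passed the threshold in neurons (2 at an unadjusted p below 0.05, beside 3.2% of all genes) and 1 in glia, where it was lower. These counts stand beside 0.279% of all genes higher and 0.0612% lower in neurons, and 0.442% higher and 0.306% lower in glia. The gene in glia was Gnai1, an inhibitory G protein alpha subunit of the kind S1P receptors signal through. It stood between 97.8 and 191 CPM in SH glia (145.9 ± 46.8) and between 33.0 and 57.5 CPM in KA glia (43.2 ± 12.7), without overlap (logFC -1.76, SE 0.36, FDR 0.0653). The call was lost without SH glia replicate 3 (FDR 0.378), KA glia replicate 1 (FDR 0.63) or KA glia replicate 2 (FDR 0.711). In neurons Gnai1 was at 87.8 ± 10.9 CPM in SH and 71.4 ± 17.3 CPM in KA (logFC -0.30). The next smallest p downward in glia was that of Gna12, another G protein alpha subunit, at 214 ± 61.6 CPM in SH and 109.9 ± 24.4 CPM in KA (logFC -0.96, FDR 0.797). Upward in glia the smallest p values were those of the sphingomyelin synthase Sgms2 (logFC 1.01, SE 0.51) and the ceramide kinase Cerk (logFC 0.77, SE 0.42), neither past the threshold.

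In neurons the smallest p values downward belonged to Smpd2, a neutral sphingomyelinase, and to the lipid exporter Abca1. Smpd2 was at 60.2 ± 22.2 CPM in SH and 23.4 ± 4.38 CPM in KA (logFC -1.36, SE 0.37, FDR 0.396), and Abca1 at 50.2 ± 18.1 and 27.7 ± 6.75 CPM (logFC -0.86, SE 0.40). Upward they belonged to Mfsd2b, the S1P exporter of blood cells (logFC 0.70, SE 0.41), and the desaturase Degs2 (logFC 0.57, SE 0.54). None of these passed the threshold. Smpd2 was called in neurons in 7 alternatives, namely with 10 counts in every library, DESeq2, protein-coding genes only, the replicate block, separate fits, upper quartile factors and without KA glia replicate 3. Gna12 was called in glia in 4, with 10 counts in every library, DESeq2, upper quartile factors and the block. The replicate block called 3 of the 54 genes in neurons, all lower in KA (Smpd2, Plpp3 and Abca1), beside 1.11% of all genes. In glia it called 8, with 1 higher (Cerk, beside 3.47% of all genes) and 7 lower (beside 4.17%), Gnai1, Gna12 and the lipid phosphate phosphatase Plpp3 among them. Plpp3, whose enzyme degrades S1P outside the cell, was at 555 ± 156 CPM in SH glia and 231 ± 83.9 CPM in KA glia (logFC -1.26 without the block and -1.29 with it, FDR 0.0087 with it). Plpp3 and the block's other calls are named here after their values were seen.

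By group, the G proteins and their effectors had a negative logFC in glia for 10 of 11 genes (median -0.39), of which Gnai1 alone passed the threshold. The S1P exporters, carriers and S1pr4 had a positive one for 5 of 5 (median 0.35), each smaller than its SE. The 17 genes of de novo synthesis (median -0.21), the 11 of sphingomyelin and glycosphingolipid turnover (-0.04), the 5 ceramidases (0.14) and the 5 other phosphatases and dehydrogenase (-0.14) were mixed in sign. Over all 54 genes the median was -0.15 in glia and -0.09 in neurons, beside 0.14 and 0.000475 over all genes tested. In the fit of protein-coding genes only, the median over all genes was -0.0062 in glia and -0.0266 in neurons. Fewer of the 54 were positive than negative in both cell types, 19 against 35 in glia and 23 against 31 in neurons. Signs were not counted over all genes tested.

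**Figure D5:**
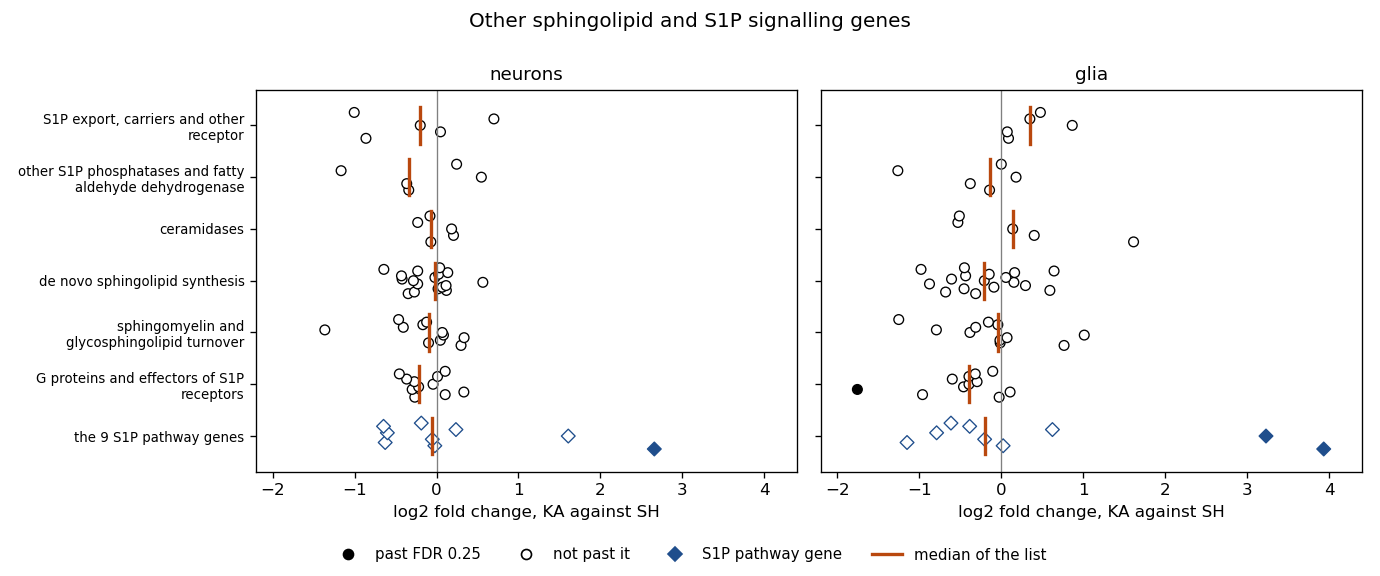
Log2 fold change of KA against SH for 54 other genes of sphingolipid metabolism and S1P signalling by list (circles) and for the 9 pathway genes (diamonds), in neurons (left) and glia (right). Filled symbols pass the FDR threshold, which among the 54 holds for Gnai1 in glia (logFC -1.76), and vertical lines mark each list's median.

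The genes whose profile over the 12 libraries was most like that of Sphk1 were Emp1, Hspb1, Fos, Ahnak2 and Gadd45b, among 20345 protein-coding genes compared by the root mean square difference of mean-centred log2(CPM + 0.5). The difference was 0.459 for Emp1, a membrane protein of epithelia, and 0.715 for Gadd45b, a stress sensor, against a median of 1.88 over all genes. Emp1 had a logFC of 2.82 in neurons (FDR 0.146) and 3.80 in glia (FDR 0.0284), past the threshold in both as Sphk1 was. Fos, the immediate early transcription factor subunit, had a logFC of 3.19 in neurons (FDR 0.0943) and 2.74 in glia (FDR 0.127). The chaperone gene Hspb1 also passed in neurons (FDR 0.0942) and glia (FDR 0.0918), whereas Ahnak2 (FDR 0.833) and Gadd45b (FDR 0.662) did not pass in neurons and did in glia (FDR 0.0257 and 0.137).

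Close to S1pr3 were the profiles of Il11, Itga5, Ifit3 and Irf7, at 0.346 to 0.55 against a median of 1.72. Il11 encodes a cytokine, Itga5 a fibronectin receptor subunit, and Ifit3 and Irf7 interferon response genes. These 4 passed the threshold in glia, with logFC between 2.79 (Irf7) and 3.74 (Il11), and none did in neurons. The profiles of Sphk1 and S1pr3 differed from each other by 1.01, the rank of S1pr3 being 34 among the profiles nearest to Sphk1 and that of Sphk1 162 among those nearest to S1pr3. These are descriptions over 12 libraries that share the 4 groups, so genes with a change in the same groups come out as alike.

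Cell type markers moved with KA in glia as follows. One of 10 astrocyte markers (Aldoc), 2 of 10 microglia markers (P2ry12 and Siglech), 1 of 5 oligodendrocyte precursor markers (Cspg4) and 1 of 15 neuronal markers (Nrgn) were lower, and 0 of 7 endothelial, 0 of 5 pericyte and 0 of 7 tested leukocyte markers passed the threshold. Of all genes tested, 0.442% were higher and 0.306% lower in KA glia. Summed over the list, astrocyte markers ranged from 2143 to 3028 CPM in SH and from 1294 to 2406 CPM in KA glia, microglia markers from 1062 to 2551 and from 745 to 1599 CPM, and endothelial markers from 11.4 to 40.4 and from 23.3 to 59.8 CPM. Leukocyte markers summed to between 5.92 and 24.0 CPM in SH and between 9.31 and 32.9 CPM in KA glia, with 1 marker at 0 in every SH library. Gfap and Aqp4, astrocyte markers named here after their values were seen, stood higher in every KA than in every SH library of glia without passing the threshold. Slc1a3, Gja1, Aldoc, Slc4a4 and Fgfr3 went the other way, lower in every KA than in every SH library of glia. The median logFC of the 10 astrocyte markers in glia was -0.83. Gfap was at 136, 119 and 176 CPM in SH and 568, 360 and 720 CPM in KA glia (logFC 1.94, FDR 0.546), and Aqp4 ranged from 72.4 to 102 and from 130 to 158 CPM. In neurons Gfap measured 20.4, 16.6 and 49.4 CPM in SH and 25.2, 66.3 and 248 CPM in KA (logFC 1.97, FDR 0.731). KA replicate 3 was its highest library, as for S1pr3 and Sphk1. In neurons 0 of the 67 markers tested passed in edgeR's quasi-likelihood test, the lowest FDR being 0.353. Of them 7 had an unadjusted p below 0.05, beside 3.2% of all genes. The part of the marked cell types in the rise of Sphk1 and S1pr3 was not tested.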

How the data were processed

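The 12 mRNAseq libraries were analysed; RRBS data were not used here. The authors trimmed reads with Trim Galore 0.4.3, aligned them to mm10 with Rsubread and deposited the counts of uniquely mapped reads per gene (featureCounts, default parameters, GENCODE M16), without normalisation. The 9 members, the lists of other pathway genes and the marker lists were chosen with earlier results of these data known. Symbols, positions and exon lengths came from GENCODE M21 on GRCm38 (53274 of 53379 IDs had a symbol), and start sites and bases from RefSeq, GRCm38.p6.

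Genes were filtered with filterByExpr (minimum count 10, minimum total 15), scaled by TMM and fitted over all 12 libraries with 4 group means (glmQLFit with legacy=TRUE, edgeR 4.0.16, limma 3.58.1, R 4.3.3). The paper's methods treat the cell types separately, which was an alternative here. P-values of glmQLFTest in this fit measure the spread between libraries of a group, estimated over both cell types together. The NeuN+ and NeuN- libraries of a pool were treated as independent in it. The SE was taken as |logFC| divided by √F. On simulated data with 200 genes changed by 3 on the log2 scale, 98% were recovered in neurons (35214 genes) and 97% in glia (35366 genes), with 18.7 and 20.5% false calls. The changed genes were drawn above an expression minimum, and the simulated noise held no shared replicate effect. Recovery of smaller changes was not simulated. RPKM used the union of exons.

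Replicate numbers were checked as pairs: deviations from group means of same-numbered KA and SH libraries correlated across genes at 0.399, 0.264 and 0.551 in neurons and 0.457, 0.543 and 0.764 in glia. Differently numbered pairs ranged from -0.502 to 0.142 in neurons and from -0.671 to 0.349 in glia. All pairs of a replicate 3 library with another number were negative. Deviations from a group mean cancel within the group, so these correlations are not independent of each other. With the same-numbered pairs positive, a replicate block was fitted beside the main model. For contrasts between the fractions the block was the pool, since NeuN+ and NeuN- nuclei came from the same pools. The methods do not describe the pools as paired.

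Named genes were the 9 members, the other pathway genes past FDR 0.25 (where fewer than 2 in a direction passed, the 2 with the smallest p), and the 5 protein-coding genes nearest to the profiles of Sphk1 and S1pr3. Of those nearest to S1pr3, 1 is not reported here. Markers were named where called. Alternatives were other scalings, filters and tests (DESeq2 1.42.0 included), separate fits, protein-coding genes only, the block and libraries left out. Shares and sums were compared by exact permutation tests (scipy 1.17.1). Figures were drawn with matplotlib 3.10.9.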

Additional observations from a re-analysis of the deposited data

Results flagged for a closer look

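The KA effect on S1pr3 differed between the cell types by 1.97 on the log2 scale (glia minus neurons, SE 0.48, edgeR FDR 0.219) when the pool was a block. The interaction term passed the threshold in that fit, and without the block it was 1.62 and did not pass. Over libraries left out in turn, without the block, it ranged from 1.20 (without KA neurons replicate 1) to 2.60 (without KA neurons replicate 3) and passed in none.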

How the results depend on the processing

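No direction of a called result turned in any alternative, and the calls of S1pr3 in glia and of S1pr1, S1pr2 and S1pr5 between the fractions were kept in each. In neurons the number of upregulated pathway genes was 1, became 2 (with S1pr3) with the replicate block, 10 counts in every library, DESeq2 and protein-coding genes only, became 0 at an FDR of 0.05, and ranged from 0 to 2 over libraries left out in turn. Without the 4 replicate 3 libraries, an alternative chosen after seeing the data, it was 0 in neurons and 1 in glia. The settings that added S1pr3 in neurons also called more genes in all. In either direction the main fit called 128 of 37598 genes in neurons and the replicate block 1147. With 10 counts in every library 465 of 18632 were called, with DESeq2 432 of 37574, and with protein-coding genes only 242 of 20346. The replicate block made 2 genes downregulated in glia, 1 interaction (S1pr3), and 3 of the 54 other genes in neurons and 8 in glia; it changed no other call but that of Sgpl1 between the fractions. The cause of these shifts was not tested. Gnai1 in glia, recomputed after seeing the data, kept logFC between -2.03 and -1.51 over libraries left out, and lost its call in separate fits (FDR 0.287) and without both low-input libraries (FDR 0.975). Gnai1 was also not called at an FDR of 0.05 or without the 4 replicate 3 libraries.

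The reversals were of logFC that never passed. For Sphk2 in neurons the logFC was 0.0256 with upper quartile factors, 0.0401 with 10 counts in every library, 0.0214 with protein-coding genes and 0.12 without the replicate 3 libraries, and -0.25 to 0.35 over libraries left out. In glia it was -0.12 with the replicate block, -0.0339 with RLE factors, -0.0505 with upper quartile factors, -0.0486 with every gene with a count, -0.0019 with 10 counts in every library, -0.0340 with DESeq2, -0.0258 with protein-coding genes and -0.42 without the replicate 3 libraries, and -0.71 to 0.31 over libraries left out. Between the fractions Sphk2 was at 0.10 with 10 counts in every library, 0.0757 with protein-coding genes and 0.12 without both low-input libraries (-0.52 to 0.13 over libraries left out), and Sphk1 at 0.049 with 10 counts in every library and 0.0432 without the replicate 3 libraries (-0.82 to 0.17). Spns2 in neurons was at 0.11 without the replicate 3 libraries (-0.46 to 0.39) and ranged from -0.27 to 0.78 between the fractions. Over libraries left out, S1pr1 in neurons ranged from -2.00 to 1.11, S1pr2 from -0.40 to 0.39 in neurons and -0.38 to 0.17 in glia, and Sgpl1 from -0.0577 to 0.38 in neurons.

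With the longest transcript as length, Sgpl1 and Sgpp1 in SH glia became 21.4 and 23.8 RPKM and changed places, and Spns2 came before S1pr5 and S1pr1. In KA glia Sphk1 (20.4 RPKM) then stood above S1pr3 (18.9) and Sgpl1 (32.9) above S1pr1 (28.3). In KA neurons Sphk1 (10.1) was in the fifth place after Sgpl1 (13.9), Sphk2 (12.9) and Sgpp1 (11.9), and in SH neurons Sgpp1 (18.6) stood above Sphk2 (13.1). The 58 to 226 reads of Sphk1 in SH libraries and the 3 libraries of a group limit the precision of its fold.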
